A study of Mus musculus with 12 samples.

Results

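The oligoadenylate synthetases (Oas) are antiviral enzymes of the interferon response, and 7 of their mouse genes were examined here: Oas1a, Oas1b, Oas1g, Oas2, Oas3, Oasl1 and Oasl2. A gene's members on the array were the probe sets that the platform annotation names for that gene alone. This gave 1 probe set each for 6 of the 7 genes, out of 45101 probe sets in all, and no second probe set as a check. Oas1g was not named by the annotation used and was not analysed here. All 6 measured genes passed the filter on low signals and were among the 10269 genes tested.

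Endothelial cells cultured from wild-type newborn mice were measured on 12 Affymetrix arrays, 4 in each of 3 groups. The tmTNF cells were stably transfected with a mutant murine tumour necrosis factor (TNF) that cannot be cleaved from the membrane and activates the cells constantly. The soluble TNF (sTNF) cells were treated with 20 ng/ml of soluble TNF for 4 h. Control cells were mock-transfected. All were grown in DMEM with fetal calf serum, glutamine and antibiotics, and about 5 micrograms of total RNA went onto an array. The labels do not say whether the tmTNF cells were a clone or a pool, or whether the sTNF cells had been mock-transfected. Nor do they say whether replicates were separate cultures. The p-values therefore set a difference against the spread between these arrays, which may be technical. Values are MAS5 signals, a linear brightness per probe set, rescaled here so that each array had a 2% trimmed mean of 500. A signal of 100 stands for the limit under which a level is uncertain. Fold changes are differences of mean log2(signal + 16), which understates changes of dim genes.

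Oas enzymes bind double-stranded RNA and join ATP into short oligoadenylates with 2′ to 5′ bonds. These short molecules act as second messengers of the antiviral response. The genes are switched on by interferons, through a factor that contains Stat2 and Irf9 and that binds the interferon-stimulated response element in promoters. In endothelium, as in other tissues, the family is a common readout of interferon signalling. Oas1 proteins hold a single synthetase unit, Oas2 holds a pair fused in tandem, and Oas3 holds a longer row. The Oas-like proteins carry ubiquitin-like repeats behind the synthetase unit. Mouse Oasl2 still makes oligoadenylates, whereas mouse Oasl1 does not and limits the translation of Irf7.

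In RefSeq's assembly GRCm38.p6 the family lies on chromosome 5. Oasl2 and Oasl1 are neighbours, and Oas2, Oas3 and the Oas1 genes form a second cluster that ends with Oas1g, Oas1a and Oas1d. The promoter table held a window of 300 bases, from 250 before to 50 after the start, for 5 of the 7 genes: Oas1a, Oas1g, Oas3, Oasl1 and Oasl2. Because all the measured genes had their highest mean signal in tmTNF cells, the family's promoters were searched on both strands for the core of the interferon-stimulated response element, which is the letters GAAA, any 2 bases and GAAA again, with overlapping matches kept. The last 120 bases before the start are shown for these genes and for Oas1c, a relative in the same cluster, with each core match in capitals.
Oas1a, chr5:120907526-120907645, minus strand: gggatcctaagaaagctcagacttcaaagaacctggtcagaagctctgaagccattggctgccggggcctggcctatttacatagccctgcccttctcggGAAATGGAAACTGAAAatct
Oas1g, chr5:120887614-120887733, minus strand: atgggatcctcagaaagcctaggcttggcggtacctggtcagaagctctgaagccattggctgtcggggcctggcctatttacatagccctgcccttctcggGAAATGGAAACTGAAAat
Oas3, chr5:120777660-120777779, minus strand: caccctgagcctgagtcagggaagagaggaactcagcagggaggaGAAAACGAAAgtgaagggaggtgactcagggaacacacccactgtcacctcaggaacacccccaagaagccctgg
Oas1c, chr5:120812515-120812634, minus strand: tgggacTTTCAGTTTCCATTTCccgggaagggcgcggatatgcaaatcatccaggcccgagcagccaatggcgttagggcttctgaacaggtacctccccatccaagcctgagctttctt
Oasl1, chr5:114923120-114923239, plus strand: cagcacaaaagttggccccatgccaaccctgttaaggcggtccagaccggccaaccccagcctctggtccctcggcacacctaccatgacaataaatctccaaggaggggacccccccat
Oasl2, chr5:114896814-114896933, plus strand: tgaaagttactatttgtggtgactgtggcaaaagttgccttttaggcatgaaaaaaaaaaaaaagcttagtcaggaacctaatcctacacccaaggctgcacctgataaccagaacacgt

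The windows of Oas1a and Oas1g each held a pair of overlapping core matches, which end 5 bases before the start in Oas1a and 3 bases before it in Oas1g. Oas3 had 1 core match, from 75 to 66 bases before its start. In Oas1c an overlapping pair lay on the opposite strand, from 114 to 99 bases before the start. No core match was found in the windows of Oasl1 and Oasl2. Counting relatives not shown, 8 family windows were searched and 4 held the core. Of all 32851 windows in the table, 3.44% held this core. The windows of Oas1a and Oas1g were identical at 261 of 294 aligned bases (88.8%). Whether the Oas1a probe set also reads Oas1g RNA was not tested.

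The labelled cell type was checked against 12 endothelial markers. Pecam1, Cdh5, Kdr, Tie1, Eng, Emcn, Esam and Erg reached a signal of 100 on every array. Flt1 and Tek fell just under it on control replicate 3 (99.9 and 98.8). Robo4 reached it on 2 tmTNF, 3 sTNF and 3 control arrays, and Vwf on 1 tmTNF, 1 sTNF and 2 control arrays. The summed signal of the 12 markers ran from 20693 to 93934 on tmTNF arrays, from 22601 to 49992 on sTNF arrays and from 12516 to 81781 on control arrays. It was lowest on control replicate 3 (12516), and among tmTNF arrays lowest on replicates 2 and 4 (21615 and 20693). Correlations between arrays across the tested genes, which are not independent replicates, on the log2 scale were 0.796 to 0.939 within tmTNF, 0.877 to 0.983 within sTNF and 0.744 to 0.881 within controls. The Y-linked genes Eif2s3y, Kdm5d and Uty were at 219 or above in all tmTNF arrays, at most 25.8 on sTNF arrays and at most 39.5 on control arrays. The sex or source of the cells therefore cannot be told apart from the transfection in any difference of tmTNF from another group.

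All 6 measured family members had higher mean signals in tmTNF cells than in sTNF or control cells. In tmTNF against sTNF cells 5 of the 6 rose, where 0.954% of all genes tested were called higher. Of these 5, Oas3 passed the filter on low signals only through its tmTNF arrays. In tmTNF against control cells 1 of the 6, Oas2, rose, where 0.185% were called higher. These calls are from limma, at an adjusted p under 0.05 after Benjamini-Hochberg adjustment over all genes. Every tmTNF array lay above every sTNF array for 6 of 6 genes, beside 10.3% of all genes, and above every control array for 5 of 6, Oas3 being the exception, beside 2.19% of all genes. In sTNF against control cells 0 of the 6 passed in limma, where 0.039% of all genes were called higher and 0% lower.

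**Figure D1:**
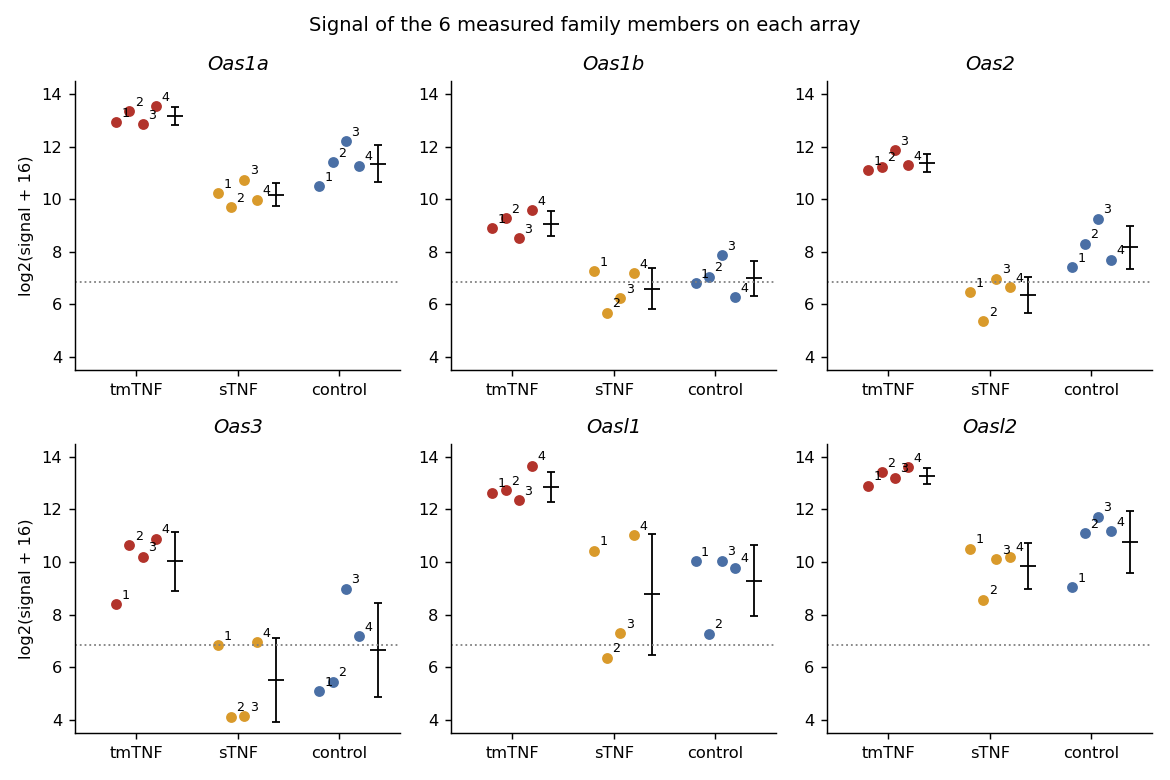
Signal of Oas1a, Oas1b, Oas2, Oas3, Oasl1 and Oasl2 on the 12 arrays, as log2(signal + 16), with tmTNF, sTNF and control arrays from left to right. Points are arrays numbered by replicate, the bar beside each group is its mean and SD (n = 4), and the dotted line marks a signal of 100. The tmTNF points sit above all sTNF points in every panel.

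Oas1a encodes an active single-unit synthetase. Its signals were 7780, 10400, 7437 and 11932 in tmTNF cells, 1183, 822, 1708 and 992 in sTNF cells, and 1431, 2701, 4681 and 2475 in control cells. All tmTNF arrays lay above all others, and sTNF and control arrays overlapped at replicate 3 of sTNF. Oas1a was 8.02-fold higher in tmTNF than in sTNF cells (95% interval of the log2 value 2.27 to 3.74, n = 4 per group, adjusted p = 0.00159 in limma). Against control its log2 fold change in tmTNF cells was 1.82 ± 0.34 (SE, as for all fold changes below), which did not pass (adjusted p = 0.0614). It passed without control replicate 3, the highest control (log2 2.11, adjusted p = 0.0157).

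Oas1b is the mouse flavivirus resistance gene, which is truncated in many inbred strains. RefSeq lists it as a transcribed pseudogene in C57BL/6J. Its signals were 463, 611, 353 and 751 in tmTNF cells, 139, 35.6, 59 and 130 in sTNF cells, and 96.9, 116, 219 and 61.3 in control cells. All arrays were above 100 in tmTNF cells, against 2 of 4 in sTNF and 2 of 4 in control cells, and no tmTNF array overlapped another group. The rise against sTNF was 5.58-fold (log2 2.48 ± 0.44, adjusted p = 0.0232). Against control the log2 fold change was 2.07 ± 0.44 and did not pass (adjusted p = 0.0966).

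Oas2, the synthetase with paired units, was the 1 member called in both tmTNF comparisons. Its signals were 2183, 2398, 3729 and 2481 in tmTNF cells, 72.2, 25, 110 and 85.1 in sTNF cells, and 154, 301, 602 and 191 in control cells. The 3 groups did not overlap, with tmTNF highest, control in the middle and sTNF lowest. Its sTNF arrays all lay below its control arrays, as they did for 4.44% of all genes. Oas2 rose in tmTNF against sTNF cells by a log2 value of 5.01 (95% interval 4.07 to 5.94), and its p ranked 1 among the 10269 genes in that comparison. Against control it rose 9.2-fold (95% interval of the log2 value 2.27 to 4.14), and its p ranked 12. The sTNF signals lay near or under 100, so the size of the first rise is less certain than the size of the second.

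Oas3, the synthetase with a row of units, was among the most variable members within groups. Its signals were 319, 1594, 1158 and 1885 in tmTNF cells, 98.6, 1.31, 1.46 and 108 in sTNF cells, and 18, 27.6, 491 and 128 in control cells. The tmTNF arrays lay above all sTNF arrays, but tmTNF replicate 1 lay below control replicate 3. Oas3 rose in tmTNF against sTNF cells (log2 4.52 ± 0.96, adjusted p = 0.0449), close to the threshold. It reached 100 on 1 sTNF and 2 control arrays, so it passed the filter on low signals only through the tmTNF group, and with no filter its adjusted p was 0.0582. Against control its value of 3.36 ± 0.96 did not pass (adjusted p = 0.296). The sTNF signals of replicates 2 and 3 were near 1, and the first value was 6.03 with a pseudocount of 1 and 3.41 with a pseudocount of 64.

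Oasl1, the inhibitor of Irf7 translation in the mouse, was measured at 6377, 6773, 5256 and 12910 in tmTNF cells, 1366, 66.3, 140 and 2054 in sTNF cells, and 1032, 139, 1048 and 865 in control cells. The tmTNF arrays did not overlap the others, whereas the sTNF arrays fell into 2 low and 2 high ones on either side of most controls. Oasl1 was the 1 member that did not pass between tmTNF and sTNF (log2 4.07 ± 0.97, adjusted p = 0.0626). Against control its value was 3.56 ± 0.97 (adjusted p = 0.248).

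Oasl2, the enzymatically active Oas-like gene, had signals of 7617, 10976, 9402 and 12397 in tmTNF cells, 1434, 360, 1088 and 1163 in sTNF cells, and 509, 2170, 3364 and 2289 in control cells. Every tmTNF array was more than 2-fold above every other array. Oasl2 rose 10.8-fold in tmTNF against sTNF cells (log2 3.44 ± 0.54, adjusted p = 0.0126). Against control its log2 fold change was 2.53 ± 0.54 and did not pass (adjusted p = 0.102).

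**Figure D2:**
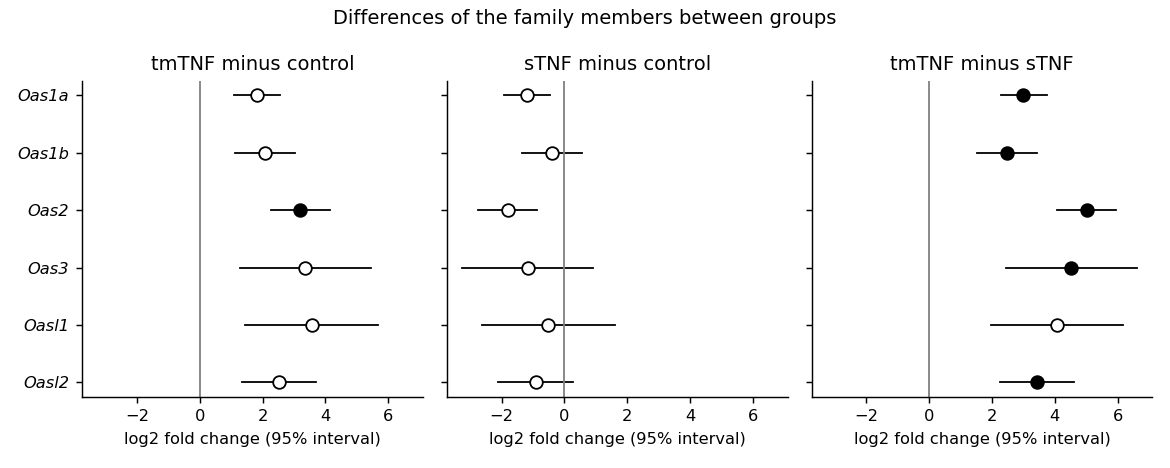
Log2 fold changes of the 6 measured members in tmTNF minus control, sTNF minus control and tmTNF minus sTNF (12 arrays in one limma fit). Lines are 95% intervals, filled points passed an adjusted p of 0.05 over all genes, and open points did not. All intervals lie above 0 in both tmTNF comparisons, and Oas1a and Oas2 alone have intervals below 0 in sTNF minus control.

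The first comparison asks what constant exposure to membrane-bound TNF does relative to mock-transfected cells. At an unadjusted p under 0.05, 6 of 6 members were higher, beside 4.81% of all genes. The median log2 fold change of the 6 was 2.86, with a range of 1.82 to 3.56, beside a median of 0.03 over all genes. Oas2 kept its call without each single array, with an adjusted p of at most 0.0332. It lost the call without control replicate 3 and tmTNF replicates 2 and 4, the arrays with the least endothelial marker signal, at a log2 fold change of 3.68 (adjusted p = 0.0621), when 0.039% of all genes were called. Without control replicate 3 alone 2 members passed, Oas2 and Oas1a.

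The second comparison asks what 4 h of soluble TNF does. At an unadjusted p under 0.05, 2 members were lower, Oas1a (log2 -1.18, 95% interval -1.91 to -0.45) and Oas2 (-1.81, -2.74 to -0.87), beside 7.28% of all genes in that direction. The adjusted p was 0.249 for Oas1a and 0.209 for Oas2. For the others the intervals included 0 and were wide: -1.36 to 0.55 for Oas1b, -3.25 to 0.92 for Oas3, -2.62 to 1.60 for Oasl1 and -2.10 to 0.27 for Oasl2. With 4 arrays a group, a rise of Oasl1 by up to 1.60 on the log2 scale was not resolved from no change. The sign of Oasl1 turned without sTNF replicate 2 (0.29). The order of the group means was tmTNF, control, sTNF for all 6 genes on the log2 scale, and the neighbours control and sTNF were not separated by the test for any of them.

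The third comparison sets constant membrane-bound TNF against 4 h of soluble TNF. The form of TNF and the length of exposure differ together here and cannot be told apart. The first 2 comparisons share the control arrays, and the third shares its arrays with both, so the 3 are not independent. At an unadjusted p under 0.05, 6 of 6 members were higher in tmTNF cells, beside 12.4% of all genes. The median log2 fold change was 3.76, with a range of 2.48 to 5.01, beside 0.08 over all genes. Oas1a and Oas2 kept their calls without each single array and without the 3 arrays of least endothelial signal (adjusted p = 0.0172 and 0.00892). The count of members called was 2 without tmTNF replicate 2, when 0.302% of all genes were called in either direction, and 3 without tmTNF replicate 4 (0.682%). It was 3 without sTNF replicate 2 (0.273%) and 3 without sTNF replicate 3 (0.536%). All 12 arrays called 1.22% of all genes. Without the 3 arrays together 2 members were called while the share of all genes was 1.5%. Of the 5 called members Oas3 lost its call most often, keeping it in 3 of the 12 fits that left out 1 array.

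**Figure D3:**
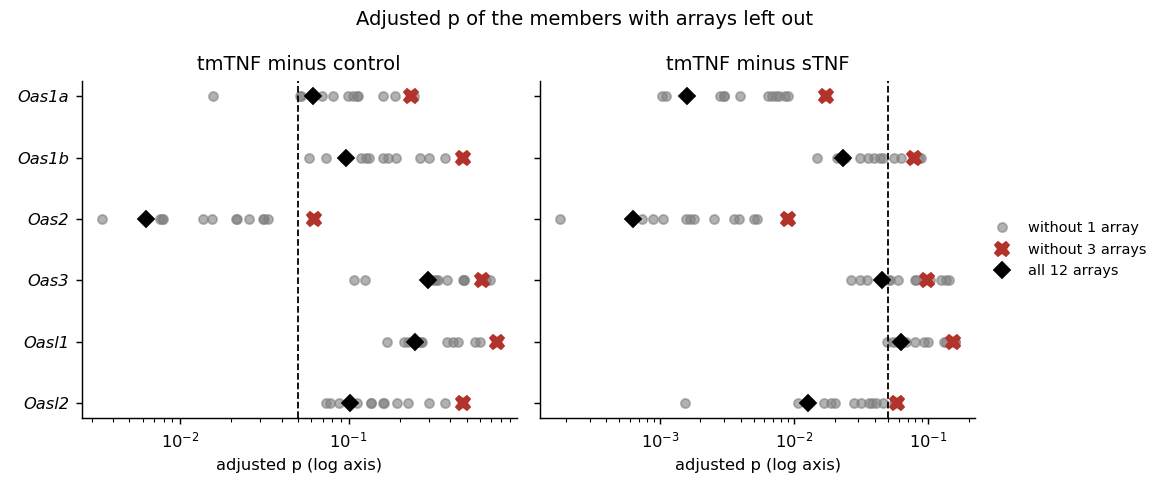
Adjusted p of each member (log axis) in tmTNF minus control and tmTNF minus sTNF, with all 12 arrays, without 1 array at a time, and without the 3 arrays of least endothelial marker signal. The dashed line marks 0.05. Oas2 stays left of the line in all 12 fits without 1 array in both panels, while Oas3 and Oasl1 lie on both sides of it or to its right.

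Within groups the members shared some of their highest and lowest arrays and not others. Control replicate 3 had the highest control signal for 6 of 6 members, whereas it was the highest control for 26.3% of all genes tested. In the sTNF group, replicate 2 had the lowest signal for 6 of 6 members, whereas it was the lowest for 25.1% of all genes. Replicate 4 of tmTNF was the highest for 5 of 6, with Oas2 the exception, and for 24.2% of all genes. The other ends were split. The lowest tmTNF array was replicate 1 for 3 members and replicate 3 for 3, the highest sTNF array was replicate 1, 3 or 4 for 2 members each, and the lowest control array was replicate 1 for 4, replicate 2 for 1 and replicate 4 for 1. Averaged over the members as standardized log2 values, the arrays ran from 0.91 to 1.40 in tmTNF, from -1.48 to -0.47 in sTNF and from -0.71 to 0.30 in controls.

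Markers of other cells also differed between these arrays. The summed signal of 5 mesothelial markers was 190, 14061, 171 and 6900 on tmTNF arrays, 4199, 923, 405 and 4390 on sTNF arrays, and 421, 332, 10590 and 373 on control arrays. Krt19 and Msln gave nearly all of the high sums, while Upk3b, Wt1 and Lrrn4 were under 100 on all 12 arrays (at most 21.7, 45.7 and 59.4). The sum was high on control replicate 3 and on tmTNF replicates 2 and 4. It was also higher on the sTNF arrays with high Oasl1 than on those with low Oasl1. The same sTNF arrays, replicates 1 and 4, had 6447 and 5585 for the sum of 8 fibroblast and mural markers, against 1349 and 1816 on replicates 2 and 3. On tmTNF arrays this sum was 349, 4156, 2152 and 8655, so replicate 3 was above sTNF replicates 2 and 3. Dcn gave most of it on tmTNF replicates 2 and 4 (3276 and 7271) and Pdgfrb on replicate 3 (1337). Dcn was at most 25.4 on sTNF and 27.7 on control arrays. The sum was 718, 259, 6139 and 3607 on control arrays. Col3a1 gave most of it on control replicate 3 (4547) and on sTNF replicates 1 and 4 (4119 and 3758), and was at most 159 on tmTNF arrays. Acta2 gave most of it on sTNF replicates 2 and 3 (1151 and 1668). By count, 1, 3, 5 and 3 of these 8 markers reached 100 on tmTNF replicates 1 to 4, so count and sum rank these arrays differently. On all 4 tmTNF arrays Oas1a, Oas1b, Oas2, Oasl1 and Oasl2 had signals above every control array. Oas3 on replicate 1 (319) lay below control replicate 3 (491). The part of these marker differences in the results was not tested.

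For 9 leukocyte markers the sum was 5285 to 7710 on tmTNF arrays, 675 to 1229 on sTNF arrays and 929 to 18968 on control arrays. Of these markers, Ptprc, Itgam, Tyrobp and Adgre1 were under 100 on all 12 arrays, and Laptm5 reached it on 1 sTNF array (111). Csf1r was at 69.4 to 183 on tmTNF, 122 to 168 on sTNF and 105 to 183 on control arrays. Lyz2 was at 48 to 1357 on tmTNF, 23.9 to 127 on sTNF and 5.12 to 201 on control arrays. The tmTNF sums came mostly from Cd68 (63.3 to 6728) and Cd14 (377 to 5129). In sTNF cells Cd68 was at 150 to 232 and Cd14 at 157 to 632, and in control cells at 255 to 18210 and 37.1 to 1406. Of the 4 leukocyte markers tested, 0 passed in any comparison in limma. Of all genes, 0.195% passed in tmTNF against control, 0.039% in sTNF against control and 1.22% in tmTNF against sTNF. With 4 genes tested, 0 lies close to these shares. In RNA from whole cultures, a change in how many cells express a gene cannot be told apart from a change in RNA per cell.

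Other genes of the pathway were read from 3 lists. The first held the relatives and partners of the synthetases, of which 4 of 8 listed genes were tested and 0 passed in any comparison. The largest share of all genes called was 1.22%, in tmTNF against sTNF, so 0 of 4 lies close to it. Abce1, a factor that recycles ribosomes, had log2 fold changes of -0.03 ± 0.21 in tmTNF and 0.50 ± 0.21 in sTNF, each against control. Pde12, which degrades the oligoadenylates, had values of -0.34 ± 0.25 and 0.01 ± 0.25. Akap7, another gene linked to oligoadenylate breakdown, had -0.34 ± 0.43 and -0.55 ± 0.43. Oas1c, which lacks synthetase activity in the mouse, had signals of 192, 298, 237 and 592 in tmTNF cells, 101, 97.5, 30.6 and 79.2 in sTNF cells, and 69.2, 112, 194 and 136 in control cells. Its tmTNF arrays lay above all sTNF arrays, but its value of 1.85 ± 0.43 did not pass (adjusted p = 0.0606).

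The second list held interferon signalling upstream of the family, with 11 of 13 genes tested. In tmTNF against control 1 rose and 0 fell, where 0.185% of all genes were called higher. In sTNF against control 0 passed, beside 0.039% of all genes. In tmTNF against sTNF 3 rose and 0 fell, where 0.954% were called higher. Stat2, a subunit of the interferon-activated factor, rose in tmTNF against sTNF cells (log2 2.36 ± 0.26, adjusted p = 0.00159) and against control (1.75 ± 0.26, adjusted p = 0.0134). Irf9, its DNA-binding partner, and Irf7, which amplifies interferon production, rose against sTNF (1.95 ± 0.34 and 4.15 ± 0.57) and did not pass against control (1.08 ± 0.34 and 3.13 ± 0.57). The interferon alpha and beta receptor chains Ifnar1 and Ifnar2 and the kinases Jak1 and Tyk2 did not pass, with values from -0.17 to 0.20 in tmTNF against control. The interferon gamma receptor chains did not pass either, with 0.69 ± 0.68 for Ifngr1 and 0.65 ± 0.40 for Ifngr2 in tmTNF, and 0.89 ± 0.68 and 1.02 ± 0.40 in sTNF, each against control. Irf1, a factor induced by interferon gamma and TNF, had 1.46 ± 0.38 in tmTNF and 1.36 ± 0.38 in sTNF (adjusted p = 0.225 and 0.246). The sTNF arrays of Ifngr2 and Irf1 lay above all their control arrays, as did those of Abce1 in the first list. The share of all genes that did so is not given here. Ifnb1, the gene of interferon beta, stayed under 100 on all arrays (35 to 88.8 in tmTNF, 26 to 62.5 in sTNF, 7.13 to 67 in controls). The median of the list was 0.65 in tmTNF against control and 0.08 against sTNF, beside 0.03 and 0.08 over all genes.

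The third list held 9 other sensors and effectors of double-stranded RNA, and all 9 were tested. In tmTNF against control 3 rose and 0 fell, where 0.185% of all genes were called higher. In tmTNF against sTNF 4 rose and 0 fell, where 0.954% were called higher. In sTNF against control 0 passed, beside 0.039% of all genes. Ddx60, a helper of RNA helicase sensing, had signals of 1250, 1606, 1566 and 2247 in tmTNF cells, 98.2, 86.2, 202 and 105 in sTNF cells, and 57.6, 281, 236 and 120 in control cells, with no overlap of tmTNF. Ddx58, which encodes the sensor RIG-I, rose against control (1.64 ± 0.25) and against sTNF (1.41 ± 0.25), and so did Zbp1, a sensor of Z-form nucleic acid (5.62 ± 0.83 and 5.26 ± 0.83). Zbp1 reached 100 on 1 sTNF and 1 control array, so it too passed the filter only through tmTNF, and the size of its fold changes is uncertain. Dhx58, which regulates RIG-I and its relatives, rose against sTNF (2.81 ± 0.46) and did not pass against control (1.97 ± 0.46, adjusted p = 0.15). Ifih1, Tlr3, Eif2ak2 and Adar passed in neither tmTNF comparison, at 2.00 ± 0.47, 1.61 ± 0.40, 0.89 ± 0.28 and 0.74 ± 0.23 against control. Every tmTNF array lay above every control array for 8 of the 9 genes, beside 2.19% of all genes. The same held against every sTNF array for 8 of the 9, beside 10.3%. Mavs, the mitochondrial adaptor of this pathway, was the exception in both, at -0.11 ± 0.25 against control. The list's median was 1.64 in tmTNF against control and 1.54 against sTNF, beside 0.03 and 0.08 over all genes.

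**Figure D4:**
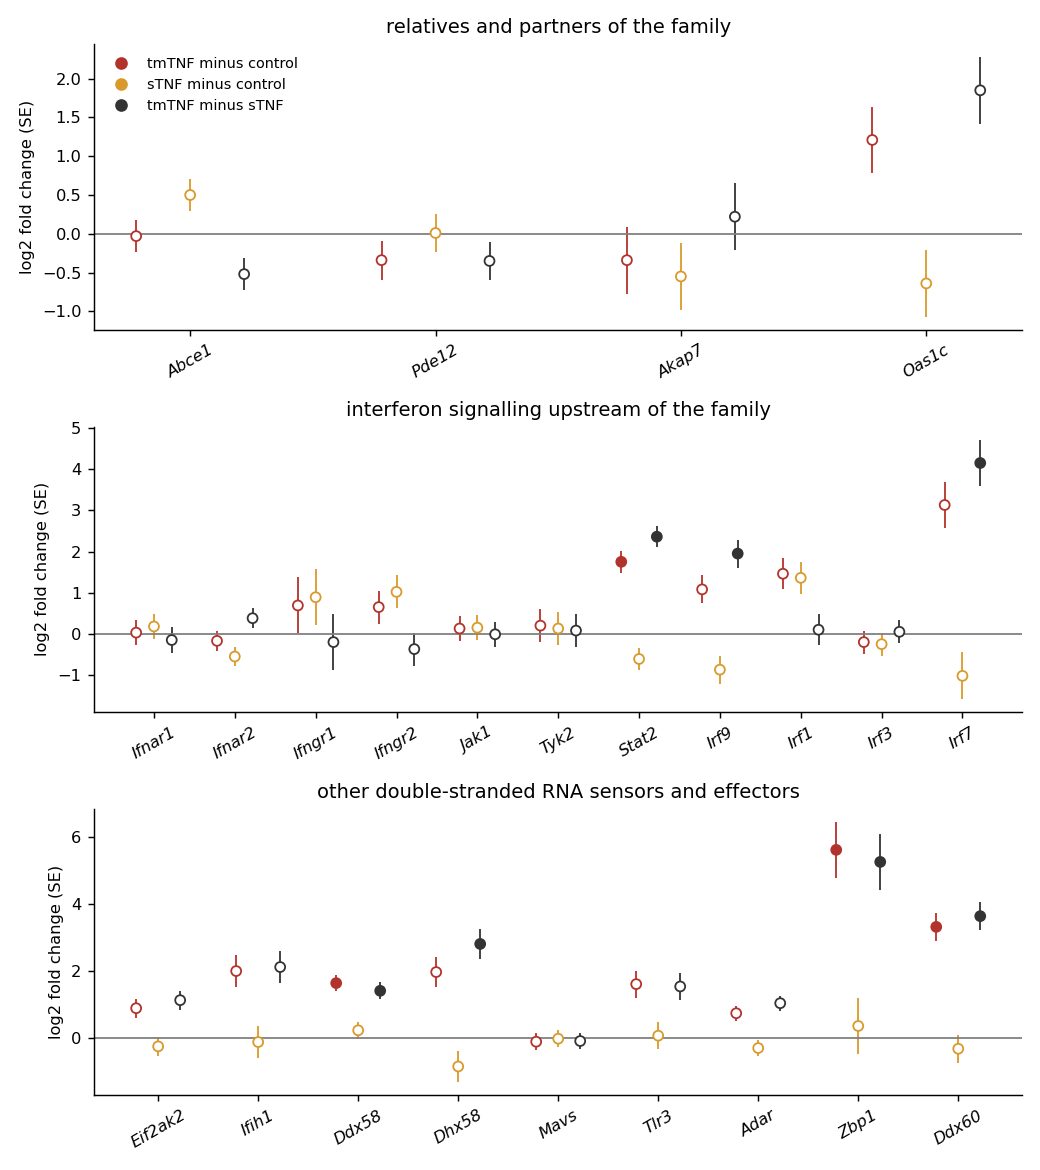
Log2 fold changes with SE for the tested genes of the 3 pathway lists, in tmTNF minus control, sTNF minus control and tmTNF minus sTNF. Filled points passed an adjusted p of 0.05 over all genes. Stat2, Ddx58, Zbp1 and Ddx60 are filled in both tmTNF comparisons, and no point is filled in sTNF minus control.

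The genes outside the family whose log2 values followed the mean of the 6 members most closely over the 12 arrays were Irf7 (Pearson r = 0.983), Usp18 (0.964), Trim30a (0.962), Gm9706 (0.959), Stat2 (0.953) and Irf9 (0.953). These correlations are descriptions, since the arrays fall into groups and share the same scaling. Set against single members, Trim30a was closest to Oas1a (0.970) and Oas2 (0.971), and Usp18, a protease that takes Isg15 off its targets, was closest to Oasl2 (0.978). Aftph was closest to Oas1b (0.958), Pcdh17 to Oas3 (0.954) and Rsad2, the antiviral enzyme viperin, to Oasl1 (0.942). Like Oas3, Pcdh17 passed the filter only through tmTNF, reaching 100 on 3 tmTNF, 1 sTNF and 1 control array. It was near 1 on sTNF replicates 2 and 3 (0.603 and 1.31), as Oas3 was, so part of their likeness rests on signals far under 100.

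**Figure D5:**
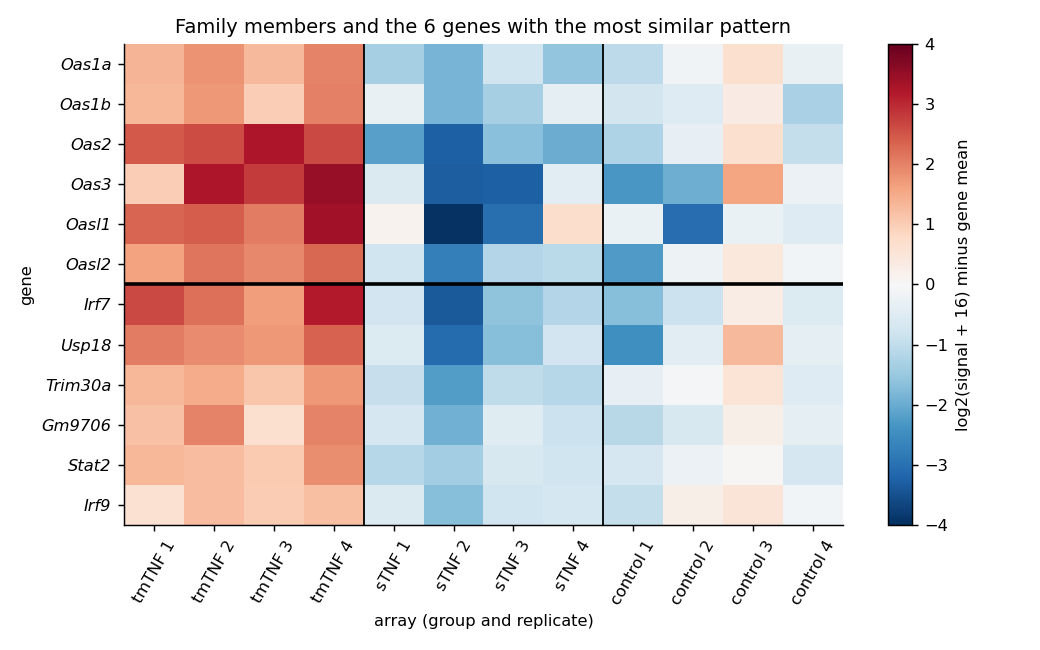
Log2(signal + 16) minus the gene's mean over 12 arrays, for the 6 members above the thick line and the 6 genes with the most similar pattern below it. Columns are tmTNF, sTNF and control arrays by replicate. The tmTNF columns are red in every row, sTNF replicate 2 is blue throughout, and among controls replicate 3 is the highest for all 6 members.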

How the data were processed

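RNA from 12 samples was measured on arrays with 45101 probe sets. The deposited values are linear signal intensities. The submitters' processing notes name MAS5, with version and settings not given in the sources used here. Deposited values ran from 0.1 to 95672 with a 2% trimmed mean of 1000 on every array, a global scaling already present in the table. The 64 control probe sets were removed, each array was brought to a 2% trimmed mean of 500, and values entered the fit as log2(signal + 16). Of the probe sets 34945 had 1 gene symbol, 932 several and 9160 none. Those at 100 or more on at least 4 arrays were kept, and the one with the highest mean stood for its gene (10269 genes, 10241 with an identifier in the RefSeq gene table). All groups were fitted together with limma 3.58.1 in R 4.3.3 (eBayes with an intensity trend, two-sided, adjusted p threshold 0.05 over all genes). The model was tested on simulated data. The precision is limited by 4 arrays a group. Detection calls were not used.

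Members, gene lists and alternatives were chosen with earlier results of these data known. Named genes were all members, genes of the 3 pathway lists, with values for those called in a comparison, the 6 genes correlating best with the members' mean, and the best for each member. Values of listed genes that were not called were added after they were seen. These are Abce1, Pde12, Akap7, Oas1c, Ifnb1, Irf1, Mavs, Ifih1, Tlr3, Eif2ak2, Adar, receptors and kinases. Alternatives in scaling, pseudocount, filter, probe-set rule, test and arrays were run. Of the genes planned for the lists, 1 is not reported here. Replicates are numbered in accession order and pair no arrays. The promoter sequences are RefSeq's (GRCm38.p6), and the array files name no genome build.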

Additional observations from a re-analysis of the deposited data

Results flagged for a closer look

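In control cells the Oasl1 signal of replicate 2 was 139, while the other control arrays had 1032, 1048 and 865. The gap from replicate 2 to its nearest neighbour was 0.902 of the group's whole range on the log2 scale, above Dixon's critical value for 4 samples. It was 1 of 18 groups of arrays tested, and chance marks about 1 in 20. Without control replicate 2 the log2 fold change of Oasl1 was 2.89 in tmTNF and -1.18 in sTNF, each against control, and neither passed.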

How the results depend on the processing

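Of the 6 members, 1 was called in tmTNF minus control, 0 in sTNF minus control and 5 in tmTNF minus sTNF. The count in sTNF minus control was 0 under every alternative run. In tmTNF minus control it was 2 with quantile normalization (Oas1a joined, log2 1.89, adjusted p = 0.0434), when 0.244% of all genes were called. Leaving out single arrays gave 1 to 2. It was 0 without the 3 arrays of low endothelial score and 0 with an exact permutation test. In tmTNF minus sTNF it was 2 to 5 when single arrays were left out, 2 without those 3 arrays, 0 with the exact permutation test, and 4 to 5 under the other alternatives. The smallest p of the exact permutation test is 0.0286, from 70 splits of 4 against 4 arrays, and after adjustment it was 0.177 in tmTNF minus sTNF, so no gene could pass. Fewer arrays also leave less power. Oas3 gave an adjusted p of 0.0185 to 0.141 in tmTNF minus sTNF over the alternatives other than the permutation test, and Oasl1 0.0492 to 0.158, passing only without sTNF replicate 4. In sTNF minus control the sign turned for Oas1b with array weights (0.09) and for Oasl1 with array weights (0.72) and without sTNF replicate 2, where leaving out single arrays gave -1.26 to 0.29. The cause was not tested. The members' median log2 fold change ranged over the alternatives from 2.42 to 3.21 in tmTNF minus control, from -1.47 to -0.49 in sTNF minus control and from 3.14 to 4.19 in tmTNF minus sTNF.

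Scaling the arrays to the same median moved the median of all genes to -0.15 from 0.08 in tmTNF minus sTNF and to -0.12 from 0.03 in tmTNF minus control. In tmTNF minus sTNF it called 67 genes higher and 172 lower, beside 98 higher and 27 lower with the trimmed mean, and the number of members called stayed at 5. Array weights called 713 higher and 463 lower there, and a fit of the 2 groups alone 310 higher and 129 lower. Signals under 100, as for Oas2 and Oas3 in sTNF cells, limit how well the size of a fold change is known. No paired analysis was possible because the labels carry no replicate numbers, and those used here follow accession order.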

Other observations

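Other members of the Oas1 group were dim or had no tested probe set. Oas1f and Oas1h stayed under a signal of 100 on all 12 arrays, at 8.88 to 40.7 and 4.72 to 41.2 in tmTNF cells, 3.62 to 48.3 and 3.77 to 6.93 in sTNF cells, and 3.46 to 39.4 and 2.21 to 10.2 in controls. Oas1e reached 100 on 1 array, tmTNF replicate 3 (142). No fold change is given for these 3 genes.

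The promoter windows were also searched for other short motifs on both strands. The response element core with a spacer of 1 base, GAAANGAAA, was found in Oas3 only among the 8 family windows, from 4 to 12 bases after the start, and in 3.17% of all windows. The gamma-activated sequence TTCNNNGAA occurred in Oas1a only, and in 8.3% of all windows. The NF-kB consensus occurred in 3 of the 8 family windows, those of Oasl1, Oas3 and Oas1c, and in 8.46% of all windows. These matches are descriptions of the letters in the windows.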
